A study of Mus musculus with 9 samples.

Results

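Antioxidant enzymes remove the reactive oxygen species that irradiation and respiration leave in a cell, and 10 of their genes are described here in mouse thymus depleted of CD45-positive cells: Cat, Sod1, Sod2, Sod3, Gpx1, Gpx3, Gpx4, Prdx1, Nqo1 and Hmox1. Members were the probe sets annotated to exactly 1 gene symbol, that symbol being 1 of the 10. The rule found 19 probe sets of 9 genes among 45101 probe sets and 18193 genes on the array. No value is given for Prdx1, a peroxiredoxin, because each of its 5 probe sets also carries the symbol of a second gene. Of the 19 probe sets, 15 passed the filter on dim signal, and all 9 genes were tested among 10937. Each of the 9 read at least 4 on the log2 scale, the level taken as detected, on all 9 arrays.

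The samples came from female C57BL/6J mice, listed at an age of 6-8 wo. The 3 groups were untreated mice, mice at day 4 after irradiation and mice at day 7 after irradiation, with 3 samples in each. Irradiated mice received SL-TBI (sublethal total body irradiation, in the usual reading) of 550 cGy from a cesium source without hematopoietic rescue. In all groups the CD45-positive (hematopoietic) fraction was depleted magnetically, and cells from several mice made up a sample. The labels name the cells as stromal, but call the pooled cells ECs in 1 place without explaining the term. Whether the samples of a group were pooled from different mice is not stated there, so p-values reflect only the spread between samples, and that spread may be technical.

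As background, superoxide dismutases turn superoxide into hydrogen peroxide, and catalase, the glutathione peroxidases and the peroxiredoxins turn hydrogen peroxide into water. Nqo1 and Hmox1 belong to the same defence as enzymes of quinone reduction and heme breakdown, and many of these genes are targets of the transcription factor NRF2. Stromal cells of the thymus have been described as poor in catalase, which has been linked to the early shrinking of the organ with age.

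The stretches before the start sites of 5 members are printed to show which regulatory motifs lie near genes that moved in different directions. They are the 250 bases upstream of the RefSeq start on GRCm38.p6, written 5′ to 3′ on the strand of the gene. Capitals mark matches, on either strand, to the core of the antioxidant response element that NRF2 binds (TGACNNNGC) or to the GC box (GGGCGG). Catalase, the glutathione peroxidases that moved in opposite directions at day 4 (Gpx1 and Gpx3), Nqo1 and Sod1 are shown.
Cat, chr2:103485154-103485403, minus strand: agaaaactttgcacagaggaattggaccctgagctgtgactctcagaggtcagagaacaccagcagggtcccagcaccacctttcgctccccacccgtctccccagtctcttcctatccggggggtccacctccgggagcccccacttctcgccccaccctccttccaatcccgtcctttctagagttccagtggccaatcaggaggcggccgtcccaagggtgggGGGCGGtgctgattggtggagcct
Gpx1, chr9:108338830-108339079, plus strand: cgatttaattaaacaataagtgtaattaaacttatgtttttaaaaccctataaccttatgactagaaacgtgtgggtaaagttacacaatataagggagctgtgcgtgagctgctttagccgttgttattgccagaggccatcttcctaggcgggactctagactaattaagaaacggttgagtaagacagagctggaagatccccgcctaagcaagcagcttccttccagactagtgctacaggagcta
Gpx3, chr11:54902604-54902853, plus strand: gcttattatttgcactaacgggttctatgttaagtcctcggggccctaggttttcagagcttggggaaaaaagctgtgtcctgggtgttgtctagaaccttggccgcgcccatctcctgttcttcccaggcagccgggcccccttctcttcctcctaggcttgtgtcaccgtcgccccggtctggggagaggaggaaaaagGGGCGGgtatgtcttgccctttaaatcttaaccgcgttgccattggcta
Nqo1, chr8:107403206-107403455, minus strand: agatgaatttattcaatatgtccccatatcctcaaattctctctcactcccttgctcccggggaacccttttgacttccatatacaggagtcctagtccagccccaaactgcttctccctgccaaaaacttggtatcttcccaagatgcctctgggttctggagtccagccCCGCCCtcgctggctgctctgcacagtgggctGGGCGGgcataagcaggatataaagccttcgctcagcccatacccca
Sod1, chr16:90220512-90220761, plus strand: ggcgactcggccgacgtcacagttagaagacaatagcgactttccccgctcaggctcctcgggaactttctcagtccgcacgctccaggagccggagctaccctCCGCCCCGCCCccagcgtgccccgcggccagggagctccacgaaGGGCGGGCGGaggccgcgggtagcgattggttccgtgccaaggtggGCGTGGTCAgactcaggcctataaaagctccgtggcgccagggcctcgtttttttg
RefSeq windows were matched for 8 of the 10 members, with 4 start sites for Gpx4. Sod1 was the measured member with a response element core in such a window, on the minus strand with its first base 56 bases before the start. The core was in 10.2% of all 32851 windows of this length. The GC box was in 32.7% of all windows and in those of Cat, Gpx3, Nqo1 and Sod1 above. In Sod1 neighbouring GC boxes share bases. The Gpx1 window held neither motif and had a GC content of 42.0%, against 62.0% for Cat and a median of 52.4% over all windows. The AP-1 motif (TGANTCA) was in 6.75% of all windows and the FOXO motif (GTAAACA) in 3.17%, and neither was in the 5 windows printed here. A match is a description of letters, not of a bound site.

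Cells other than stroma changed in share or in RNA content between the groups, and the 2 cannot be told apart in bulk samples. In the untreated samples the mean of 11 thymocyte markers lay between 9.43 and 9.81, at day 4 between 3.79 and 4.16, and at day 7 between 7.11 and 7.23 (log2). Ptprc, the gene of CD45, read 11.96 to 12.45 in these untreated CD45-depleted samples, 4.18 to 5.22 at day 4 and 9.26 to 9.64 at day 7. Erythroid (3 of 6 markers tested) and cycling lists had their lowest values at day 4 as well, at 3.69 to 3.96 and 4.70 to 4.88. Of 9 macrophage markers, 6 were below 4 on all arrays, and the mean of the other 3 was 5.68 to 6.25 untreated, 5.15 to 5.38 at day 4 and 5.13 to 5.21 at day 7. The neutrophil mean (4 of 5 tested) was 7.25 to 8.89, 6.16 to 6.74 and 4.97 to 5.46 in the same order. Stromal lists moved the other way: fibroblast means were 10.35 to 10.94, 11.71 to 12.17 and 11.28 to 11.60, and pericyte means (7 of 8 tested) 6.33 to 6.87, 7.23 to 7.51 and 7.98 to 8.05. Of the pericyte genes tested, 4 were called higher, 1 lower and 2 neither at day 4, and the 1 lower was Rgs5 (-0.81, limma adjusted p = 0.00141). Endothelial means were 4.19 to 6.11, 5.15 to 5.93 and 7.56 to 7.65, with untreated replicate 3 above the other untreated arrays, while epithelial means stayed within 10.40 to 10.85 over all 9 arrays. That epithelial mean joins genes that moved both ways. At day 4 Krt5 and Foxn1 rose (1.74 and 1.03), and Aire and Krt14 fell (-1.32 and -0.82). Adipose means (4 of 6 tested) were 5.67 to 5.82, 6.37 to 8.79 and 6.45 to 7.88, highest in day 4 replicate 1. Of the adipose genes tested, 2 were called higher and 2 neither at day 4, and likewise at day 7. The gap between 3-prime and 5-prime control probe sets of Actb, a sign of RNA quality, was 2.28 ± 0.15 untreated, 3.13 ± 0.17 at day 4 and 2.51 ± 0.21 at day 7 (log2, SD, n = 3). The part of these shifts in the results below was not tested.

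**Figure D1:**
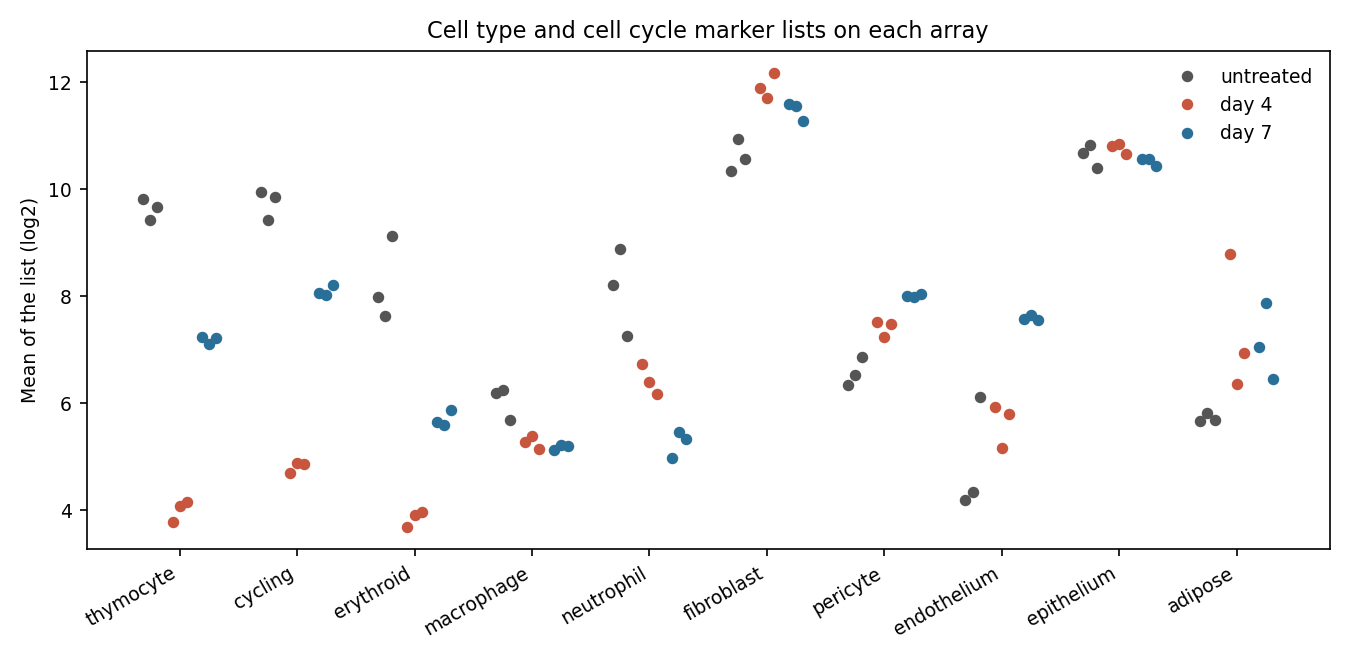
Mean of each marker list (log2, tested genes of the list) on each of the 9 arrays, by group. The thymocyte mean lies between 9.43 and 9.81 untreated and between 3.79 and 4.16 at day 4, and the fibroblast mean is higher on every irradiated array than on every untreated one.

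The scale on which a gene is read decided its direction in several cases. The deposited values are the main scale. Each array was also quantile normalized again, centred on the mean of all tested genes, centred on the epithelial markers, or centred on 4 stromal lists together (epithelium, fibroblast, endothelium and pericyte). The last of these moved the median difference of all genes by -0.67 at day 4 and -1.08 at day 7. The epithelial centring moved it by -0.14 and 0.11, and the first 2 by -0.12 and -0.11 at day 4. The median difference of all tested genes on the deposited scale was 0.20 at day 4, 0.09 at day 7 and -0.10 between day 7 and day 4. Each tested gene of the 4 stromal lists counted equally in the stromal centring, and the lists did not move alike. Their median differences from untreated were 0.10 (epithelium), 1.26 (fibroblast), 0.93 (endothelium) and 1.17 (pericyte) at day 4. At day 7 they were 0.19, 0.71, 2.84 and 1.26. Up to 5 of the 10 endothelial genes read below 4 on an untreated array. The pericyte genes Higd1b and Mcam reached 4 only at day 7.

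Nqo1, which encodes a quinone reductase that is a common readout of NRF2, rose at both times. It read 7.25, 7.90 and 7.70 in the untreated samples, 9.04, 9.20 and 8.94 at day 4, and 8.52, 8.64 and 8.78 at day 7 (log2 throughout). All 6 irradiated samples lay above all 3 untreated ones, and the day 7 samples lay below the day 4 samples. The difference from untreated was 1.45 at day 4 (SE 0.16, 2.73-fold, limma adjusted p = 8.23e-05) and 1.03 at day 7 (SE 0.16, 2.04-fold, limma adjusted p = 0.000884). Relative to the 4 stromal lists the day 4 rise was 0.77 (limma adjusted p = 0.00519) and the day 7 value turned to -0.053 (limma adjusted p = 0.825). The step from day 4 to day 7, -0.42, did not pass the test (95% interval -0.79 to -0.05, limma adjusted p = 0.0879), though it did without untreated replicate 1 (limma adjusted p = 0.0309), with array weights (limma adjusted p = 0.0349) and on the stromal scale (-0.83, limma adjusted p = 0.0055).

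Hmox1, which encodes the heme oxygenase that is inducible by heme and oxidants, had another course. Its values were 5.94, 5.88 and 5.84 untreated, 5.05, 5.04 and 5.56 at day 4, and 6.02, 6.77 and 6.19 at day 7. The day 4 samples were below all untreated ones, and the day 7 samples above them. It fell by 0.67 at day 4 (SE 0.20, 1.59-fold, limma adjusted p = 0.018). This call was lost without untreated replicate 1 (-0.65, limma adjusted p = 0.0513), day 4 replicate 1 (-0.59, limma adjusted p = 0.063) or day 4 replicate 2 (-0.58, limma adjusted p = 0.0632), and with no filter on dim genes (limma adjusted p = 0.0591). At day 7 it stood 0.44 from untreated, which did not pass the test (95% interval -0.02 to 0.90, limma adjusted p = 0.0965). Leaving out single arrays moved this value between 0.22 (without day 7 replicate 2) and 0.59, and it turned to -0.64 relative to the stromal lists (limma adjusted p = 0.0172). Between day 4 and day 7 it rose by 1.11 (SE 0.20, 2.16-fold, limma adjusted p = 0.00538), a step that also passed under each alternative run. Thymocyte, erythroid and cycling lists were also lowest at day 4 and higher at day 7. At day 7 the means of these lists were still below untreated, and Hmox1 read above it, by a difference that did not pass. The thymocyte mean was 7.11 to 7.23 against 9.43 to 9.81. The erythroid mean was 5.59 to 5.88 against 7.64 to 9.13, with 2 of its 3 tested genes called lower and 1 neither. The cycling mean was 8.02 to 8.21 against 9.42 to 9.95. Their part in the Hmox1 values was not tested.

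Catalase, the peroxisomal enzyme that splits hydrogen peroxide without a cofactor to recycle, fell at both times. Cat read 10.14, 10.22 and 10.28 untreated, 9.87, 9.81 and 9.64 at day 4, and 9.75, 9.96 and 9.97 at day 7. All 6 irradiated samples lay below all 3 untreated ones, and the irradiated groups overlapped each other. The fall was 1.36-fold at day 4 (-0.44, SE 0.10, limma adjusted p = 0.00471) and 1.25-fold at day 7 (-0.32, SE 0.10, limma adjusted p = 0.026). The day 4 call held under all 20 alternatives. The day 7 call was lost without untreated replicate 3 (-0.28, limma adjusted p = 0.0677), without day 7 replicate 1 (-0.25, limma adjusted p = 0.0923) and relative to the epithelial markers (-0.21, limma adjusted p = 0.32). A second probe set of Cat gave -0.44 at day 4 (limma adjusted p = 0.0231) and -0.43 at day 7 (limma adjusted p = 0.0292), in a fit over all single-symbol probe sets. The difference between day 7 and day 4 was 0.12 (95% interval -0.11 to 0.35, limma adjusted p = 0.404), and it turned to -0.29 relative to the stromal lists.

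**Figure D2:**
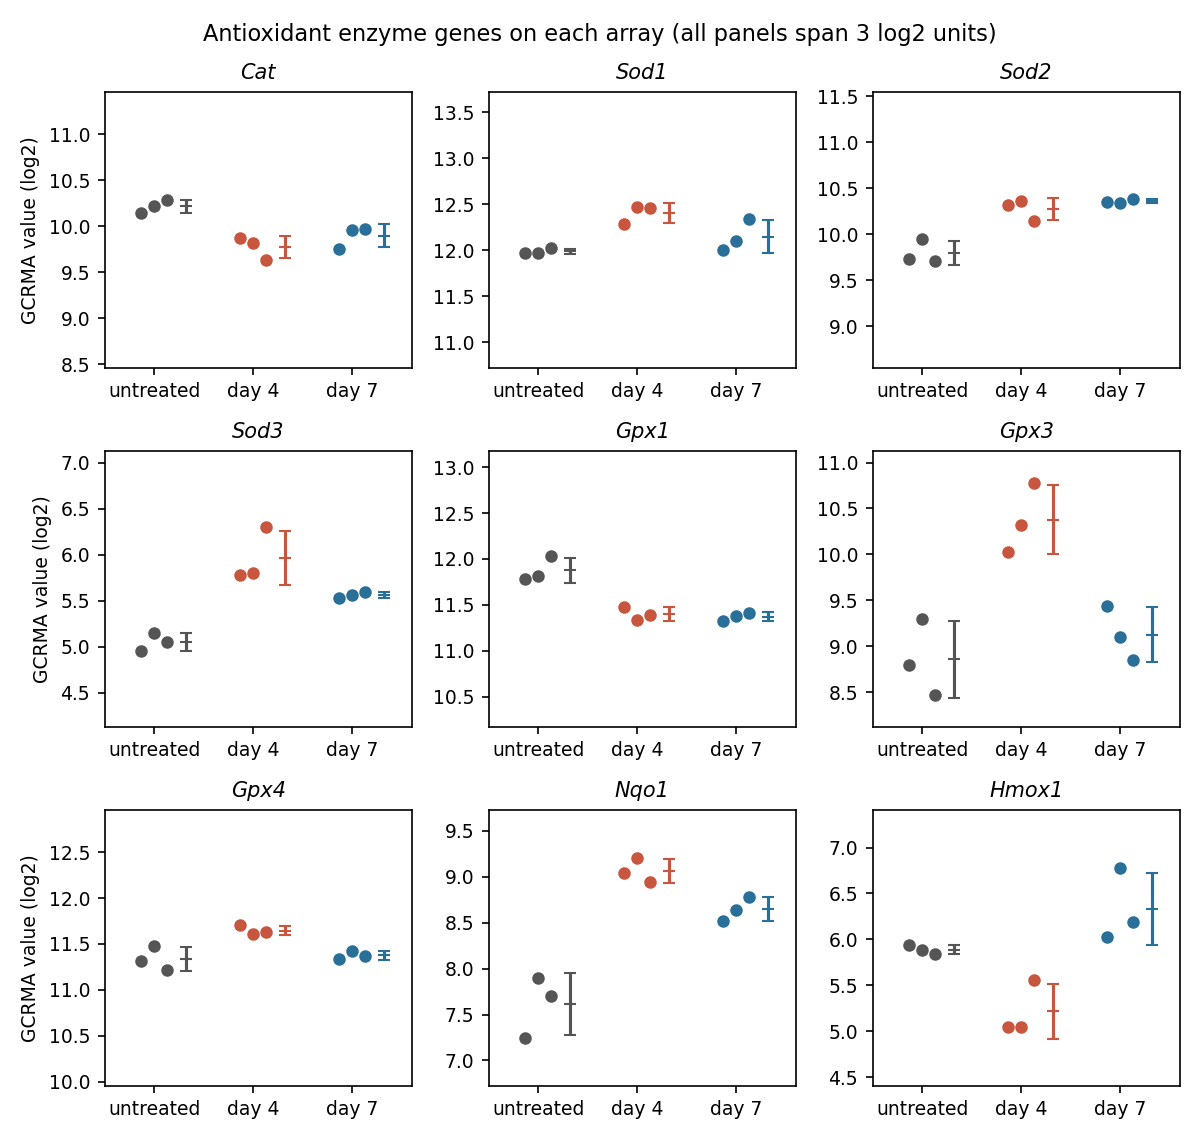
Deposited value (log2) of the kept probe set of 9 antioxidant enzyme genes on each array, with the mean and SD of each group of 3 beside the points; every panel spans the same 3 log2 units. Cat and Gpx1 lie below untreated on all 6 irradiated arrays, Nqo1, Sod2 and Sod3 above, and Gpx3 is high on the 3 day 4 arrays.

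The glutathione peroxidases, which spend glutathione to reduce peroxides, differed from one another. Gpx1, the enzyme of cytosol and mitochondria, read 11.78, 11.82 and 12.03 untreated, 11.48, 11.33 and 11.39 at day 4, and 11.32, 11.38 and 11.41 at day 7. Every irradiated sample was below every untreated one. It fell by 0.47 at day 4 (SE 0.09, 1.39-fold, limma adjusted p = 0.00203) and by 0.50 at day 7 (SE 0.09, 1.42-fold, limma adjusted p = 0.00205). The day 4 call held under all 20 alternatives, and the day 7 call was lost relative to the epithelial markers (-0.39, limma adjusted p = 0.0887). Its day 7 and day 4 values differed by -0.03 (95% interval -0.24 to 0.18), a difference that turned positive without day 4 replicate 1 (0.011) and on centring to all tested genes (0.042) or the epithelial markers (0.22).

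Gpx3, the secreted peroxidase, had the largest rise of the 9 genes at day 4. Its values were 8.80, 9.30 and 8.47 untreated, 10.03, 10.32 and 10.78 at day 4, and 9.44, 9.10 and 8.85 at day 7. The day 4 samples were above all others, and the day 7 samples overlapped the untreated ones. It rose 2.87-fold at day 4 (1.52, SE 0.26, limma adjusted p = 0.000814) and fell 2.38-fold from day 4 to day 7 (-1.25, limma adjusted p = 0.00837), both under all 20 alternatives. At day 7 it stood 0.27 from untreated (95% interval -0.31 to 0.85, limma adjusted p = 0.4), and -0.81 relative to the stromal lists. That day 7 value rested on single arrays: it was 0.49 without untreated replicate 2, 0.076 without untreated replicate 3, 0.11 without day 7 replicate 1 and 0.41 without day 7 replicate 3. The adipose list was also higher in its mean on the day 4 arrays (6.37 to 8.79) than untreated (5.67 to 5.82), and at day 7 it was 6.45 to 7.88. Its genes were not alike at day 4: Adipoq and Pparg were called higher (3.32 and 1.09), and Ucp1 and Fabp4 were not called (2.30 and -0.17). Within day 4 the adipose mean was 8.79, 6.37 and 6.94 in replicate order, and Gpx3 was lowest in replicate 1. The fibroblast list was 10.35 to 10.94 untreated, 11.71 to 12.17 at day 4 and 11.28 to 11.60 at day 7. The part of either list in the Gpx3 values was not tested.

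Gpx4, which reduces lipid peroxides in membranes, read 11.32, 11.48 and 11.21 untreated, 11.70, 11.61 and 11.63 at day 4, and 11.33, 11.43 and 11.37 at day 7. The day 4 samples were the highest, and the day 7 samples overlapped the untreated ones. The day 4 rise of 0.31 (SE 0.09, 1.24-fold, limma adjusted p = 0.0154) did not pass without day 4 replicate 1 (0.28, limma adjusted p = 0.0552) or under 3 of the 4 other scalings (0.17 to 0.21), and it turned to -0.36 under the stromal one. A second probe set gave 0.59 (limma adjusted p = 0.000605). At day 7 the difference was 0.04 (95% interval -0.17 to 0.25, limma adjusted p = 0.74), and it turned negative without untreated replicate 3 (-0.0225), after quantile normalization (-0.058) and relative to the stromal lists (-1.04). The step from day 4 to day 7 was -0.27 (limma adjusted p = 0.0559), and it passed without untreated replicate 2 (limma adjusted p = 0.0302) or untreated replicate 3 (limma adjusted p = 0.0371). It also passed at a detection level of 6, for the mean of its probe sets, with an intensity trend, with array weights, after quantile normalization and on the stromal scale (limma adjusted p from 0.0119 to 0.0488). The second Gpx4 probe set gave -0.40 for this step (limma adjusted p = 0.0157).

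All 3 superoxide dismutase genes rose at day 4 on the deposited scale, but relative to the 4 stromal lists Sod1 and Sod2 turned negative and Sod3 no longer passed. Sod1, the copper and zinc enzyme of the cytosol, read 11.97, 11.97 and 12.02 untreated, 12.29, 12.48 and 12.45 at day 4, and 12.00, 12.10 and 12.34 at day 7. Day 4 lay above untreated in all samples, and day 7 overlapped both. The day 4 rise was 0.42 (SE 0.11, 1.34-fold, limma adjusted p = 0.0079), against 0.28 relative to epithelial markers (limma adjusted p = 0.208) and -0.26 relative to the stromal lists (limma adjusted p = 0.322). The mean of the Sod1 probe sets gave 0.24 (limma adjusted p = 0.0259). At day 7 the difference was 0.16 (95% interval -0.08 to 0.40, limma adjusted p = 0.229), 0.063 without day 7 replicate 3, and -0.92 on the stromal scale. The step from day 4 to day 7 was -0.26 (limma adjusted p = 0.104), and passed without day 7 replicate 3 (-0.35, limma adjusted p = 0.0463) and on the stromal scale (-0.67, limma adjusted p = 0.0177). The other detected Sod1 probe sets gave 0.58 (limma adjusted p = 0.00366) and 0.33 (limma adjusted p = 0.0595) at day 4. At day 7 they gave 0.42, which passed (limma adjusted p = 0.0216), and 0.03 (limma adjusted p = 0.855).

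Sod2, the manganese enzyme of mitochondria, read 9.73, 9.95 and 9.71 untreated, 10.32, 10.37 and 10.14 at day 4, and 10.35, 10.34 and 10.38 at day 7. All irradiated samples lay above all untreated ones, and the irradiated groups overlapped. The rise was 0.48 at day 4 (SE 0.10, 1.39-fold, limma adjusted p = 0.00258) and 0.56 at day 7 (SE 0.10, 1.48-fold, limma adjusted p = 0.00148), turning to -0.20 and -0.52 relative to the stromal lists. Its probe sets did not move alike. The other detected ones gave 0.22 (limma adjusted p = 0.0754) and 0.03 (limma adjusted p = 0.829) at day 4, and the mean of all Sod2 probe sets gave 0.20 (limma adjusted p = 0.0644). At day 7 the other detected ones gave 0.35, which passed (limma adjusted p = 0.0138), and 0.24 (limma adjusted p = 0.0778). For the kept probe set, the day 7 difference minus that of day 4 was 0.09 (95% interval -0.14 to 0.31), and -0.32 on the stromal scale.

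Sod3, the extracellular enzyme held on matrix, read 4.95, 5.15 and 5.05 untreated, 5.78, 5.80 and 6.31 at day 4, and 5.53, 5.56 and 5.60 at day 7. The 3 groups did not overlap, with day 4 highest and untreated lowest. The rise was 0.91 at day 4 (SE 0.14, 1.88-fold, limma adjusted p = 0.000491) and 0.51 at day 7 (SE 0.14, 1.43-fold, limma adjusted p = 0.0134), and relative to the stromal lists it was 0.24 (limma adjusted p = 0.347) and -0.57 (limma adjusted p = 0.0186). The mean of both Sod3 probe sets gave 0.46 (limma adjusted p = 0.00143) and 0.26 (limma adjusted p = 0.0274). The step between the irradiated groups was -0.40 (95% interval -0.72 to -0.08, limma adjusted p = 0.0646), -0.23 without day 4 replicate 3 (limma adjusted p = 0.125), and -0.81 on the stromal scale, where it passed (limma adjusted p = 0.00553). A second Sod3 probe set, 1 of Sod2 and 2 of Sod1 did not pass the filter on dim signal. The means of probe sets given for these genes include the undetected ones, which make the differences smaller.

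**Figure D3:**
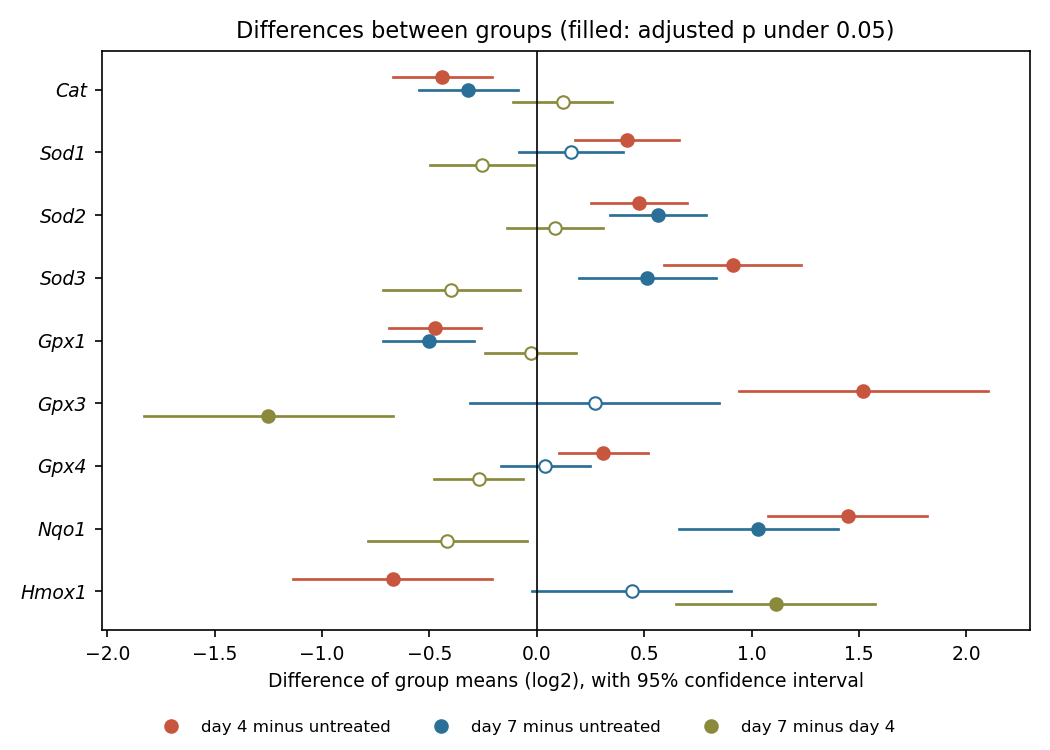
Differences between group means (log2) of the 9 genes with 95% confidence intervals, for the 3 comparisons; filled points passed an adjusted p of 0.05. Gpx3 and Nqo1 have the largest day 4 rises (1.52 and 1.45), and Gpx3 and Hmox1 are the 2 genes whose step from day 4 to day 7 passed.

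Counted together, 9 of the 9 genes passed the test at day 4, 6 higher and 3 lower, where 63.2% of all tested genes passed, 41.8% higher and 21.4% lower. At day 7 there were 5 of 9, 3 higher and 2 lower, against 54.1% of all genes, 32.1% higher and 22.0% lower. Between day 7 and day 4 there were 2, 1 higher and 1 lower, against 27.3% of all genes, 9.78% higher and 17.6% lower. Groups did not overlap for 9, 6 and 5 of the 9 genes in the same order, and for 67.7%, 62.4% and 51.7% of all tested genes. The median difference of the 9 genes was 0.42, 0.27 and -0.26. More than 1 in 2 of all tested genes passed against untreated at each time, so these counts are read beside that background. Among all genes called, 66.1% were higher at day 4, and 17.1% relative to the stromal lists. At day 7 the share was 59.3%, and 69.7% relative to epithelial markers and 2.99% relative to the stromal lists. Between day 7 and day 4 it was 35.8%, and 48.6% after quantile normalization, 47.5% centred on tested genes, 71.3% relative to epithelial markers and 7.81% relative to the stromal lists. Over the 3 comparisons the 9 genes gave 16 calls, of which 13 were kept on leaving out each array in turn. The calls kept under all 20 alternatives were 6: Cat, Gpx1, Gpx3 and Nqo1 at day 4, and the steps of Gpx3 and Hmox1 from day 4 to day 7. Some of the 20, such as leaving out a day 7 array for day 4 against untreated, change a p-value but not the difference.

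**Figure D4:**
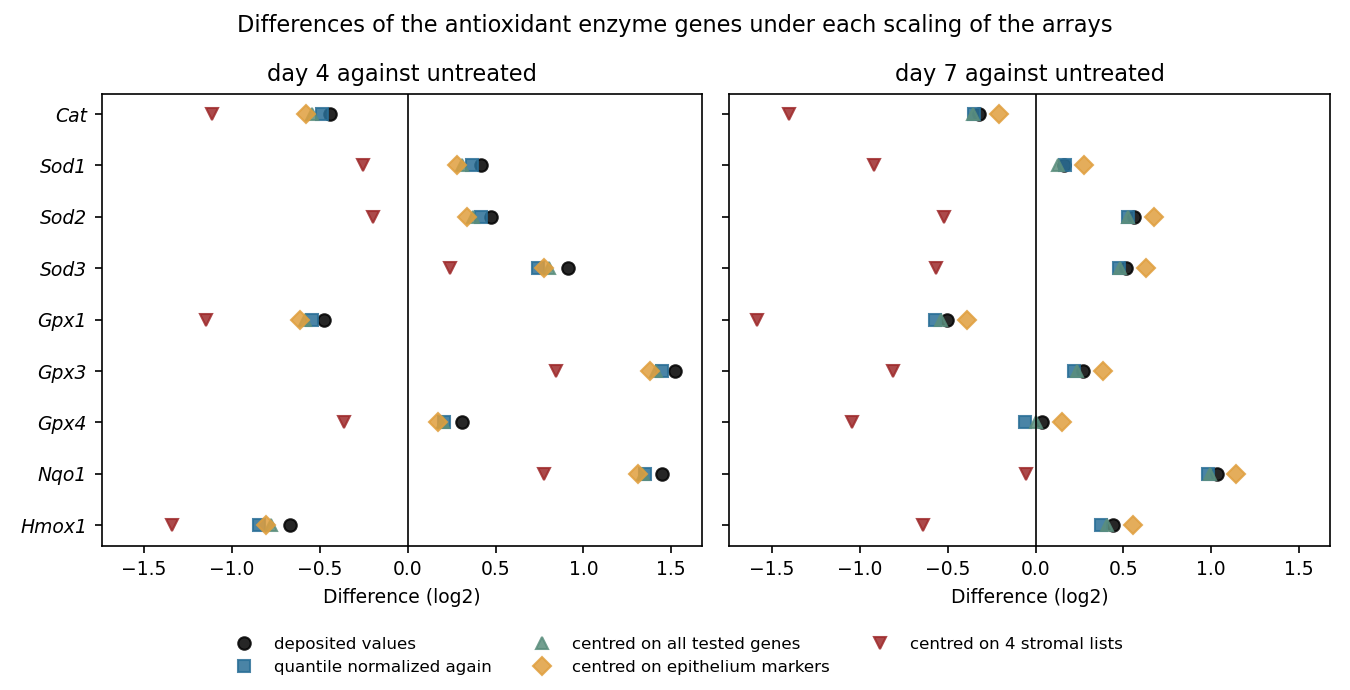
Difference from untreated (log2) of the 9 genes at day 4 and day 7 under the deposited scale and 4 other scalings. Centring on the 4 stromal lists shifts every gene down, so that Sod1, Sod2 and Gpx4 turn negative at day 4 and every gene is below 0 at day 7.

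The genes whose profile over the 9 arrays was nearest to that of Cat, each gene centred on its own mean, were Zfp644 (root mean square difference 0.0464), Tomm20 (0.0538), Usp15 (0.0582), Hdac2 (0.061) and Jade1 (0.0647), none of them an enzyme of peroxide removal. For Gpx3 the nearest were Larp6, Mdk and Zfp385a (0.18 to 0.20), and for Nqo1 Gm15050, Aldh6a1 and Cx3cl1 (0.09 to 0.10). For Hmox1 the nearest were Myc (0.20), Atf4 (0.24) and Ifrd1 (0.25). Sod2 was nearest to Nipsnap2 (0.0378), Rrm2b and Bbs4, and Gpx4 to Ciao1 (0.0349), Dram1 and Med28. For Sod1 these were Dhrs3, Ppp1r11 and Zfp592, for Sod3 2510009E07Rik, Rhoq and Pmm1, and for Gpx1 Pabpc1, Eed and Oaz1. These are descriptions over arrays that share their groups.

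The counts of the related lists below stand beside the shares of all tested genes given above, 41.8% higher and 21.4% lower at day 4 and 32.1% and 22.0% at day 7. Of the genes of glutathione synthesis and use, 20 of 22 were tested. At day 4, 12 were higher and 5 lower (median 0.46), and at day 7, 9 and 4 (median 0.28). Relative to the stromal lists the counts turned to 5 higher and 7 lower at day 4 and 1 and 12 at day 7. Mgst2, a microsomal glutathione transferase, fell from 7.94 ± 0.18 to 4.14 ± 0.36 at day 4 and stood at 6.10 ± 0.09 at day 7 (SD, n = 3; limma adjusted p = 4.33e-07 and 7.04e-05). Slc7a11, the cystine importer that feeds glutathione synthesis, fell from 5.86 ± 0.10 to 4.31 ± 0.03 and 4.07 ± 0.21 (limma adjusted p = 7.93e-06 and 1.32e-05).

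In the thioredoxin list 17 of 20 genes were tested, with 8 higher and 2 lower at day 4 (median 0.23) and 4 and 1 at day 7 (median 0.21), and 0 higher with 7 and 16 lower relative to the stromal lists. Under the 3 other scalings 5 were higher at day 4, and without day 7 replicate 2 the day 7 counts were 3 and 0. Msrb3, a methionine sulfoxide reductase, went from 7.85 ± 0.27 to 8.69 ± 0.07 and 9.35 ± 0.17 (limma adjusted p = 0.000954 and 8.05e-05), and Msrb1 from 7.48 ± 0.14 to 8.14 ± 0.07 and 8.02 ± 0.06 (limma adjusted p = 0.000319 and 0.00155). Relative to the stromal lists Msrb1 turned to -0.01 and -0.55.

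The NRF2 list, which holds the factor, its partners and regulators and some of its targets, was tested in all 15 genes. At day 4, 9 were higher and 2 lower (median 0.49), and at day 7, 8 and 1 (median 0.41), against 2 and 5, and 1 and 9, relative to the stromal lists. Further targets were counted in the glutathione and thioredoxin lists and moved both ways at day 4. Gclc, Gsr, Txn1 and Slc7a11 were lower (-0.50, -0.33, -0.49 and -1.55), and Gsta3 and Gstm1 higher (2.20 and 1.22). Gclm, Txnrd1 and Srxn1 were not called (-0.11, -0.05 and 0.20). Ephx1, a microsomal epoxide hydrolase, rose from 8.88 ± 0.31 to 11.15 ± 0.16 and 10.58 ± 0.07 (limma adjusted p = 5.01e-06 and 6.4e-05), also on the stromal scale. Cbr3, a carbonyl reductase, rose from 7.67 ± 0.12 to 8.72 ± 0.01 and 8.50 ± 0.06 (limma adjusted p = 1.53e-05 and 0.000128), and turned to -0.25 at day 7 on the stromal scale. Nfe2l2, the gene of NRF2, was looked at after its values were seen. It read 9.99 ± 0.16, 11.07 ± 0.07 and 10.76 ± 0.14 (limma adjusted p = 5.2e-05 and 0.000597), but the mean of its probe sets differed by 0.30 and 0.25 and did not pass, and the day 7 value turned to -0.32 on the stromal scale.

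Peroxisomal genes, which share the organelle of catalase, were tested in 10 of 12. At day 4, 8 were higher and 0 lower (median 0.38), where Cat fell, and at day 7, 4 and 0 (median 0.17). Relative to the stromal lists there were 1 higher and 2 lower at day 4, and 0 and 9 at day 7. The day 4 count of 8 fell to 5 without untreated replicate 1 or 3 or day 4 replicate 1 or 2, to 5 centred on tested genes, to 3 after quantile normalization and to 2 relative to epithelial markers. The day 7 count of 4 fell to 1 without untreated replicate 1 or day 7 replicate 3, and to 2 without untreated replicate 2, day 4 replicate 1 or 2 or day 7 replicate 1 or 2, with no filter on dim genes and under the 3 scalings other than the stromal one. Pex11a, a factor of peroxisome division, rose from 5.53 ± 0.33 to 6.83 ± 0.26 and 6.29 ± 0.12 (limma adjusted p = 0.000288 and 0.00712), and its day 7 value turned to -0.32 on the stromal scale. Acaa1a, a thiolase of fatty acid oxidation, differed by 0.51 at day 4 (limma adjusted p = 0.00241) and 0.25 at day 7 (limma adjusted p = 0.0703), or -0.16 and -0.83 on the stromal scale. Scp2, a lipid carrier, differed by 0.31 (limma adjusted p = 0.0343) and 0.36 (limma adjusted p = 0.0227). Its day 4 call was lost without untreated replicate 1 or 3 or day 4 replicate 1 or 2 (0.28, 0.27, 0.23 and 0.33), and its day 7 call without untreated replicate 1 or 3 or day 7 replicate 2 or 3 (0.33, 0.31, 0.32 and 0.32). On the stromal scale Scp2 turned to -0.36 and -0.73.

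The selenoprotein list holds selenoproteins and the machinery that inserts selenocysteine, which Gpx1, Gpx3 and Gpx4 also carry, and was tested in all 10 genes. At day 4, 4 were higher and 0 lower (median 0.35), and at day 7, 4 and 1 (median 0.23), or 0 and 2, and 0 and 9, relative to the stromal lists. Those higher at day 4 were the selenoproteins Selenop, Selenow, Selenom and Selenos. The machinery genes Sephs2, Sepsecs, Secisbp2 and Eefsec were called higher at neither time. Without untreated replicate 2 the day 4 counts were 5 and 1. Selenop, which carries selenium between tissues, rose from 11.72 ± 0.17 to 12.89 ± 0.18 and 12.29 ± 0.17 (limma adjusted p = 0.000104 and 0.00737), turning to -0.51 at day 7 on the stromal scale. Selenow rose from 9.97 ± 0.18 to 11.07 ± 0.12 at day 4 (limma adjusted p = 4.95e-05). At day 7 it read 10.25 ± 0.08 (limma adjusted p = 0.0597), which passed without untreated replicate 1 (0.39, limma adjusted p = 0.0223) and turned to -0.80 on the stromal scale. Selenos differed by 0.49 and 0.51 (limma adjusted p = 0.00157 and 0.00172), or -0.19 and -0.57 on the stromal scale. Secisbp2, a protein that binds the selenocysteine signal in the transcript, fell by 0.77 at day 7 (limma adjusted p = 0.0069). At day 4 its difference was -0.47 (limma adjusted p = 0.0513), or -0.69 without untreated replicate 2 (limma adjusted p = 0.00134).

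Genes of copper, zinc and manganese supply, metals that the dismutases need, were tested in 7 of 8, with 4 higher and 0 lower at each time (medians 0.46 and 0.51), or 1 and 2, and 1 and 4, relative to the stromal lists. Slc39a8, an importer of zinc and manganese, rose from 6.60 ± 0.23 to 8.45 ± 0.08 and 8.39 ± 0.25 (limma adjusted p = 1.42e-05 and 4.85e-05), against 0.93 and 0.89 for the mean of its probe sets. Ccs, the copper chaperone of Sod1, differed by 0.62 and 0.51 (limma adjusted p = 0.000277 and 0.00123), or -0.06 and -0.58 on the stromal scale. Mt1, a metallothionein, went from 10.62 ± 0.34 to 11.70 ± 0.19 and 11.95 ± 0.14 (limma adjusted p = 0.000632 and 0.000337).

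Heme and iron genes were tested in 7 of 8, with 4 higher and 1 lower at day 4 (median 0.26) and 3 and 0 at day 7 (median 0.26), or 2 and 2, and 0 and 6, relative to the stromal lists. Without untreated replicate 1, 2 were higher at day 4 and 1 at day 7, and without day 4 replicate 1, 2 at day 4. Centring on tested genes or epithelial markers also gave 2 at day 4, and without untreated replicate 2 the day 7 counts were 4 and 1. Blvrb, a biliverdin reductase, rose from 5.74 ± 0.30 to 7.02 ± 0.24 at day 4 (limma adjusted p = 0.000207). At day 7 it read 6.34 ± 0.11 (limma adjusted p = 0.0159), a call lost without untreated replicate 1 (0.44) or day 7 replicate 1 (0.54) and turned to -0.49 on the stromal scale. Blvra, the other biliverdin reductase of the list, was not called (0.26 and 0.32, limma adjusted p = 0.118 and 0.0673). Cp, the ferroxidase ceruloplasmin, went from 8.49 ± 0.24 to 9.90 ± 0.24 and 9.31 ± 0.11 (limma adjusted p = 6.7e-05 and 0.00212), with -0.26 at day 7 on the stromal scale.

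The NADPH list holds genes that make NADPH, which keeps glutathione and thioredoxin reduced. It also holds Tkt and Taldo1 of the pentose phosphate pathway, which do not make NADPH. The list was tested in 8 of 9 genes, with 2 higher and 2 lower at day 4 (median 0.04) and 2 and 1 at day 7 (median -0.10). Relative to the stromal lists the counts were 0 and 4, and 0 and 7. On the deposited scale the lower genes were Tkt and Taldo1 at day 4 (-0.68 and -0.41) and Tkt at day 7 (-0.75). No tested gene of the list that makes NADPH was called lower there. The day 4 median had no stable sign: it was -0.0085 without untreated replicate 3, -0.0071 for the mean of probe sets, and -0.038 to -0.63 under the other 4 scalings. The day 7 median was 0.018 relative to epithelial markers. Idh1, a cytosolic isocitrate dehydrogenase, rose from 9.61 ± 0.15 to 10.50 ± 0.02 and 10.31 ± 0.06 (limma adjusted p = 5.3e-05 and 0.000374), with -0.38 at day 7 on the stromal scale, and Tkt, a transketolase, fell from 12.54 ± 0.17 to 11.86 ± 0.18 and 11.79 ± 0.08 (limma adjusted p = 0.00127 and 0.00107).

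Genes of enzymes that make oxidants moved in both directions. Of 17 listed, 12 were tested, with 6 higher and 5 lower at day 4 (median -0.08) and 6 and 6 at day 7 (median -0.42), or 5 and 6, and 1 and 7, relative to the stromal lists. The sign of these medians hung on which genes were tested. Mpo, called lower at both times (5.30 untreated, 2.34 and 2.28), passed the filter only through the 3 untreated arrays. Without untreated replicate 1, 2 or 3 it dropped out. The medians of the 11 genes left were 0.67, 0.68 and 0.42 at day 4 and 0.41, 0.57 and 0.39 at day 7. With 12 genes tested, the day 4 median was 0.012 without day 4 replicate 3. The medians were also positive at a detection level of 6 (9 genes tested, 0.59 and 0.65) and for the mean of probe sets (11 genes tested, 0.50 and 0.46). At day 4 the median was positive with no filter on dim genes as well (14 genes tested, 0.29). Without untreated replicate 1 or 2, 3 of the 11 genes were lower at day 4. Rac2 and Ncf1, parts of the NADPH oxidase of blood cells, fell, Rac2 from 8.07 ± 0.26 to 4.70 ± 0.47 and 5.32 ± 0.11 (limma adjusted p = 4.41e-06 and 4.04e-05) and Ncf1 from 8.40 ± 0.54 to 7.02 ± 0.40 and 5.36 ± 0.20 (limma adjusted p = 0.00235 and 6.67e-05). The thymocyte and neutrophil lists were lower at both times as well. Aox1, an aldehyde oxidase, rose from 7.47 ± 0.25 to 9.13 ± 0.06 and 8.30 ± 0.09 (limma adjusted p = 8.9e-06 and 0.000695), with -0.25 at day 7 on the stromal scale.

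On the stromal scale, beside the sign changes given above, the day 4 calls of Msrb3, Cbr3, Nfe2l2, Idh1, Selenop, Selenow and Mt1 and the day 7 calls of Msrb3 and Mt1 were lost. Relative to the epithelial markers the day 4 call of Selenos was lost (0.35). Averaging each gene's probe sets, with those too dim to pass the filter included, changed the size of some differences by over 1.5 times. It gave -1.71 and -1.40 for Rac2, -0.36 and -0.47 for Tkt, 0.42 and 0.76 for Msrb3, and -1.76 for Ncf1 at day 7, beside the values of Sod1, Sod2, Sod3, Nfe2l2 and Slc39a8 given with those genes. For Selenow at day 7 it gave 0.53, which passed (limma adjusted p = 0.0238). The day 7 call of Secisbp2 was lost in that setting (-0.57).

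**Figure D5:**
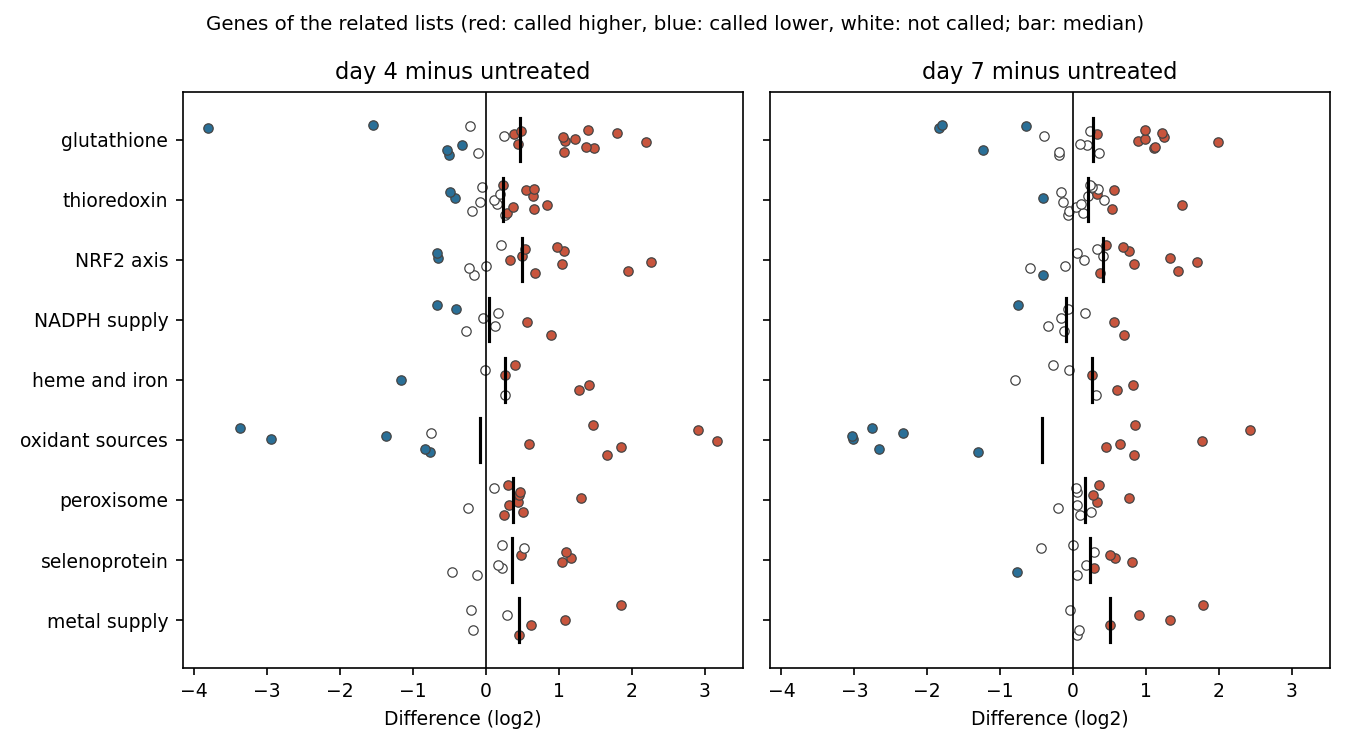
Difference from untreated (log2) of each tested gene of 9 related lists at day 4 and day 7; red genes were called higher, blue genes lower, white genes neither, and the bar is the median of the list. The glutathione list spans from -3.81 for Mgst2 upward at day 4, and the oxidant source list has calls on both sides of 0.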

How the data were processed

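RNA of CD45-depleted thymic cells was hybridised to Affymetrix Mouse Genome 430 2.0 arrays, 1 per sample (3 untreated, 3 at day 4 and 3 at day 7). The authors' deposited table holds log2 values. Per the submitters' processing notes they come from GCRMA, of which the version is not given in the sources used here. That the scale is log2 was read from the values, whose floor is 2.27. GCRMA corrects background by probe sequence, so differences near the floor are compressed. Of 45101 probe sets, 34945 had 1 gene symbol. Each gene was represented by its brightest probe set (mean over 9 arrays), and genes at 4 or more on at least 3 arrays were tested (10937). No level is compared between probe sets. All 9 arrays entered 1 limma 3.58.1 model (lmFit and eBayes, R 4.3.3) with group as its only term, and p-values were adjusted over all tested genes with the Benjamini-Hochberg method at 0.05. Precision is limited by the number of arrays. The code was tested on simulated data. Alternatives covered the filter, the choice of probe set, the variance model, array weights, 4 scalings, a replicate block and leaving out each array. Same-numbered samples of different groups did not deviate together (correlations -0.12 to 0.18, 3 of 9 above 0.1), so replicate numbers were not treated as pairs. Members, lists and tests were chosen with earlier results of these data known. Of the related lists, the text names the 2 genes with the smallest adjusted p at each time. Other genes of these lists, such as the further NRF2 targets, Blvra, Taldo1 and Mpo, are named outside that rule. For likeness the 3 nearest genes are named, or 5 for Cat. Promoter letters are from RefSeq (GRCm38.p6), with 1 or more windows for 8 of 10 members. Plots were made in Python 3.11 with matplotlib 3.10.9.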

Additional observations from a re-analysis of the deposited data

Results flagged for a closer look

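For 2 genes the difference from untreated was not the same at day 4 and day 7. Gpx3 stood 1.52 above untreated at day 4 and 0.27 at day 7, a change of -1.25 (log2, limma adjusted p = 0.00837), and all 3 day 7 samples lay below all 3 day 4 samples. Hmox1 stood at -0.67 and 0.44, a change of 1.11 (limma adjusted p = 0.00538), with all 3 day 7 samples above all 3 day 4 samples. The day 4 value enters both differences of each gene, and the test of the change is the comparison of day 7 with day 4 itself.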

How the results depend on the processing

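Over 20 alternatives, 537 values of the 9 genes were recomputed, of which 490 kept their direction and their side of the threshold, 16 lost the call, 14 gained it and 17 changed sign. Of the 17, 12 came from centring on the 4 stromal lists. There Sod1, Sod2 and Gpx4 turned to -0.26, -0.20 and -0.36 at day 4. At day 7 Sod1, Sod2, Sod3, Gpx3, Gpx4, Nqo1 and Hmox1 turned to -0.92, -0.52, -0.57, -0.81, -1.04, -0.053 and -0.64, and between day 7 and day 4 Cat and Sod2 to -0.29 and -0.32. Gpx4 at day 7 turned to -0.058 after quantile normalization, and the day 7 minus day 4 value of Gpx1 to 0.042 centred on tested genes and 0.22 on epithelial markers. Leaving out single arrays gave -0.0225 to 0.11 for the former and -0.063 to 0.0109 for the latter. The cause was not tested.

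Of the 9 genes, 5 passed at day 4 on the stromal scale (2 higher, 3 lower), against 9, where 6207 of all 10937 genes passed (1063 higher, 5144 lower). At day 7, 3 passed on the epithelial scale (3 higher; all genes 5328, 3716 higher and 1612 lower) and 8 on the stromal one (8 lower), against 5. Between day 7 and day 4, 4 passed with array weights (1 higher, 3 lower; all genes 4467, 1475 higher and 2992 lower) and 6 on the stromal scale (1 higher, 5 lower), against 2. Of all genes, 8989 passed at day 7 on the stromal scale against 5915 (269 higher, 8720 lower), and 5571 between day 7 and day 4 against 2991 (435 higher, 5136 lower). Leaving out single arrays gave 1741 to 3440 for the last count, the lowest without day 7 replicate 2, with 1976 and 1856 without day 4 replicate 1 and 2. With the replicate number as a block (replicate block), 9, 4 and 2 of the 9 genes and 6669, 5588 and 2614 of all genes passed in the 3 comparisons; the call lost was Cat at day 7 (-0.32, limma adjusted p = 0.0518). No array correlated best with its own number in both other groups. At a detection level of 6, Sod3 was not tested and has no value.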
